A study of Homo sapiens with 4 samples.

Results

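The 10 genes described here belong to the BCL2 family, the proteins that decide whether the outer membrane of the mitochondrion is opened during apoptosis. They were taken by name, as rows of the deposited count table whose Ensembl IDs map to the symbols BCL2, BCL2L1, MCL1, BCL2A1, BAX, BAK1, BID, BCL2L11, BBC3 and PMAIP1. All 10 were found among the 67062 rows, each as 1 row, and all 10 passed the filter on low counts that left 15918 genes for testing. Their raw counts ran from 117 (BCL2A1) to 16623 (MCL1), so each member was measured in every library.

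The cells were OCI-AML3, an established human acute myeloid leukaemia line with the cytoplasmic NPM1 mutation (NPM1c+). They carried either the retroviral vector pMSCV-PIG with the full LONA long noncoding RNA (PIG-LONA) or that vector without insert (PIG-EMPTY, the negative control). Both vectors also express puromycin resistance and GFP from a PGK promoter, and both groups were sorted for GFP. Each group had 2 libraries from independent transductions of this 1 line, 4 libraries in all, with total counts between 29819572 and 38358442. The myeloid surface marker CD33 was at 98.4 to 104 CPM (reads as counts per 1000000 of the TMM-scaled library total), and HOXA9 and MEIS1, known for high expression in leukaemia with mutant NPM1, were at 52.6 to 59.8 and 41.1 to 43 CPM, whereas CD3D, CD3E, MS4A1, HBB, HBA1, HBA2 and EPCAM, markers of lymphoid, erythroid and epithelial cells, had 0 counts. MPO, the myeloperoxidase gene of the granulocytic lineage, was low at 2.10 to 2.79 CPM, and NPM1, which most cells express, was at 1767 to 1813 CPM. No value for LONA itself is given here, so the labels were not checked against the transgene.

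BCL2 family proteins fall into opposing classes. BCL2, BCL2L1 (BCL-XL), MCL1 and BCL2A1 (BFL-1) are pro-survival members that hold the other classes in check. BAX and BAK1 are the effectors that, once activated, permeabilise the outer membrane and release cytochrome c, which starts caspase activation on APAF1. BID, BCL2L11 (BIM), BBC3 (PUMA) and PMAIP1 (NOXA) are BH3-only members that carry death signals to the other classes by binding them through a short helix, the BH3 segment. Myeloid leukaemia cells are known to lean on BCL2 and MCL1 for survival, and BCL2 is the target of the drug venetoclax. BBC3, PMAIP1 and BAX are known to be transcribed in response to DNA damage.

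The bases that match a short BH3 core pattern are shown here because the pattern was found in 9 of the 10 members. The pattern searched was a leucine, 3 residues of any kind, a glycine or alanine, and an aspartate, in the principal coding sequence of each gene (GENCODE release 29, GRCh38). It occurred exactly 1 time in each of the 9 and 0 times in BCL2A1. The pattern is short, and 24.7% of 19699 protein-coding genes hold it somewhere, so a match by itself marks no BH3 segment. Each line gives 30 bases of coding sequence, 5′ to 3′, with 2 codons on either side of the core and the codons for leucine, glycine or alanine, and aspartate in capitals.
BCL2 (chr18:63318355-63318384, minus strand, exon 2): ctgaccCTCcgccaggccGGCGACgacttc
BCL2L1 (chr20:31721928-31721957, minus strand, exon 2): caagcgCTGagggaggcaGGCGACgagttt
MCL1 (chr1:150578871-150578900, minus strand, exon 1): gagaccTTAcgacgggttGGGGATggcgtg
BAX (chr19:48955781-48955810, plus strand, exon 3): gagtgtCTCaagcgcatcGGGGACgaactg
BAK1 (chr6:33575393-33575422, minus strand, exon 4): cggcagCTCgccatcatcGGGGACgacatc
BID (chr22:17739421-17739450, minus strand, exon 4): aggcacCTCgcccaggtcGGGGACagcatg
BCL2L11 (chr2:111150097-111150126, plus strand, exon 4): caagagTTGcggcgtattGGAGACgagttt
BBC3 (chr19:47226585-47226614, minus strand, exon 3): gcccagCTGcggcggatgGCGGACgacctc
PMAIP1 (chr18:59902667-59902696, plus strand, exon 2): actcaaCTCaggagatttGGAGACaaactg
BBC3 was the only 1 of the 9 with alanine in place of glycine. Each core lay within a single exon. The encoded proteins ranged from 54 residues (PMAIP1) to 350 residues (MCL1).

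MCL1 dominated the family's transcripts. Levels of different genes were compared per length, as CPM per kilobase of the gene's merged exons. MCL1 stood at 95.7 and 98.0 in the PIG-EMPTY libraries and at 95.3 and 98.9 in the PIG-LONA libraries, above 97.7% of tested genes with a length. It held 39.3% ± 0.572 of the summed family level in PIG-EMPTY and 40.0% ± 0.544 in PIG-LONA (mean ± SD, n = 2 each). BAX came next with 53.8 and 53.7 CPM per kilobase in PIG-EMPTY, against 47.9 and 47.5 in PIG-LONA, above 94.7% of tested genes.

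Below these, the order over the 4 libraries was BID, BAK1, BCL2L11, BCL2, PMAIP1, BCL2L1, BBC3 and BCL2A1. BCL2, with 9.84 and 9.98 CPM per kilobase in PIG-EMPTY, against 11.1 and 11.6 in PIG-LONA, therefore ranked only sixth per length, although it had more reads than BID in each of the 4 libraries. BBC3 and BCL2A1, at the bottom, were the only neighbours in this order whose ranges over the 4 libraries overlapped. BCL2A1 was the higher of the pair in both PIG-EMPTY libraries and the lower in both PIG-LONA libraries. With the longest annotated transcript as the length, the order was the same, and MCL1 and BAX held 31.9% and 28.6% of the summed level. The files do not say which transcripts were made, so these per-length values depend on the length chosen.

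**Figure D1:**
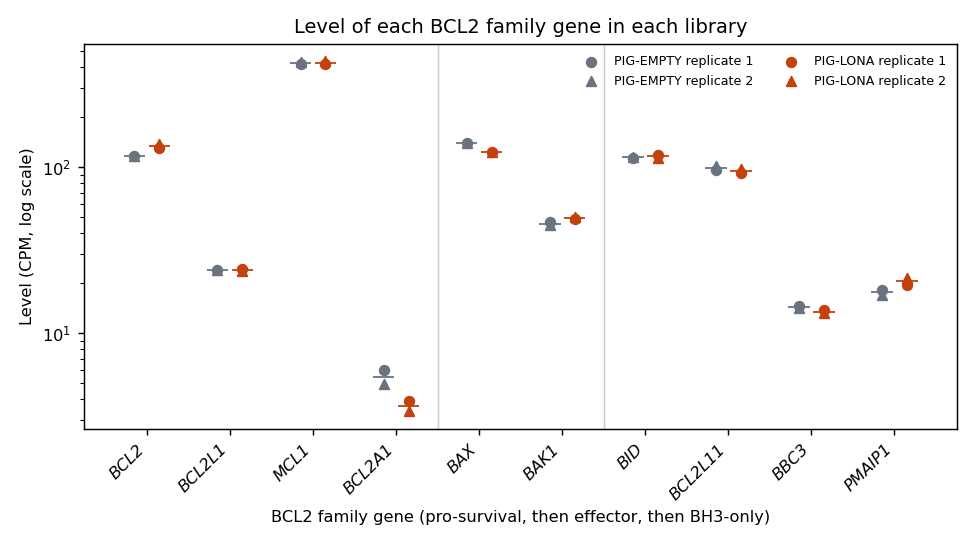
Level of each BCL2 family gene in CPM on a log axis, with circles for replicate 1 and triangles for replicate 2 of PIG-EMPTY (grey) and PIG-LONA (orange) and short lines for the group means of 2 libraries. The groups are apart for BCL2 (116 and 117 against 131 and 137 CPM), BCL2A1 and BAX. They also do not overlap for BAK1, BBC3 and PMAIP1, which did not pass the test. For BCL2L1 and MCL1 they lie on top of each other.

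The comparison of PIG-LONA with PIG-EMPTY addresses LONA overexpression in this line, in a study whose title concerns myeloid differentiation. The values are differences between the 2 groups of libraries. BCL2 rose, BAX and BCL2A1 fell, and the other 7 members did not pass the test (edgeR quasi-likelihood test over all genes, Benjamini-Hochberg adjusted p under 0.05). So 1 of 10 members was higher and 2 were lower, 3 in all. Over all 15918 tested genes 6.44% passed, 2.93% higher and 3.51% lower in PIG-LONA. The median log2 fold change of the members was -0.00 and that of all tested genes was 0.00. Their median absolute log2 fold change was 0.11, beside 0.09 for all tested genes. The groups did not overlap in 6 of 10 members, against 48.0% of tested genes.

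**Figure D2:**
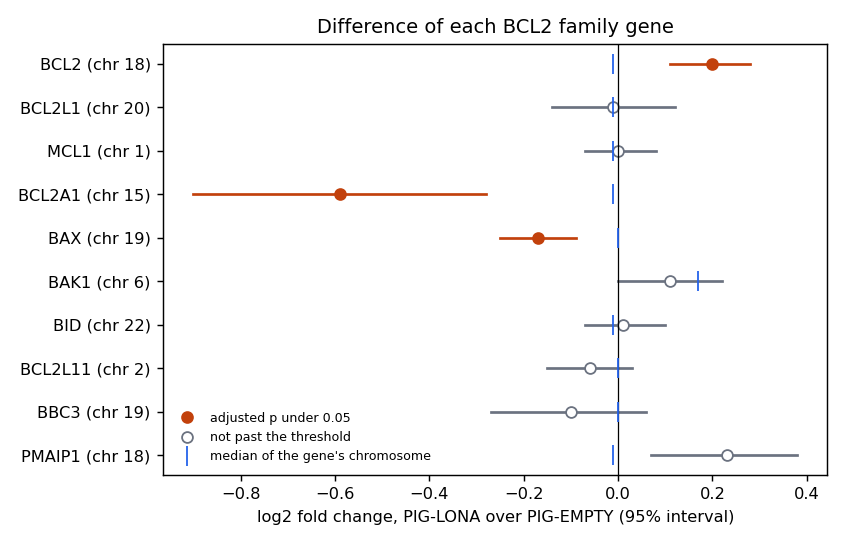
log2 fold change of PIG-LONA over PIG-EMPTY for the 10 members, with 95% intervals from the edgeR fit. Filled orange circles passed the threshold, open grey circles did not, and blue ticks give the median log2 fold change of all tested genes on the same chromosome. BCL2A1 lies farthest from 0 at -0.59, and BAK1 is the only member whose chromosome median (0.17) is far from 0.

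Among the pro-survival members, BCL2 rose by 14.7%. Its levels were 116 and 117 CPM in PIG-EMPTY, against 131 and 137 CPM in PIG-LONA. Both PIG-LONA libraries were higher, and the gap between groups was wider than the gap within either. The log2 fold change was 0.20 ± 0.04 (SE; 1.15-fold, edgeR adjusted p = 0.00424). BCL2 lies on the minus strand of chromosome 18 (63123346 to 63320128, GRCh38), where the median log2 fold change of 228 tested genes was -0.01. Of its 11 tested neighbours within 1000000 bases, 0 were higher and 1 was lower by the edgeR test. Each PIG-EMPTY library was needed for the call, since the edgeR adjusted p was 0.0877 without replicate 1 and 0.0576 without replicate 2, at log2 fold changes of 0.19 and 0.21.

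BCL2A1 fell, in the opposite direction to BCL2. This gene, a known NF-kB target expressed in blood cells (chromosome 15, 79960889 to 79971446), had 178 and 160 counts in PIG-EMPTY, against 117 and 130 in PIG-LONA. On the CPM scale these were 5.98 and 4.93 against 3.91 and 3.38. The groups were apart, but the PIG-EMPTY libraries also differed from each other by about as much as the lower of them did from the nearest PIG-LONA library. The log2 fold change was -0.59 ± 0.15 (SE; 0.67-fold, edgeR adjusted p = 0.0186), with a wide 95% interval of -0.90 to -0.28 that goes with its low count. Leaving out PIG-EMPTY replicate 1 (-0.44, edgeR adjusted p = 0.223) or PIG-LONA replicate 2 (-0.47, adjusted p = 0.0759) ended the call, as did DESeq2 (adjusted p = 0.141) and testing with no low-count filter (adjusted p = 0.114).

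Markers of monocytes and macrophages moved with BCL2A1. Of 10 such genes (CD14, ITGAM, CD163, CSF1R, S100A8, S100A9, VCAN, LYZ, FCGR1A and MRC1), 9 were tested. All 9 were lower in PIG-LONA by the edgeR test, beside 3.51% of all tested genes. MRC1 had 1 count at most in any library. The summed level of the 10 genes was 454 and 454 CPM in PIG-EMPTY, against 272 and 285 CPM in PIG-LONA. The part of this shift in the BCL2A1 result was not tested, and in bulk RNA fewer cells that express a gene and less of its RNA per cell cannot be told apart. Not all myeloid genes moved this way. Of 9 tested AML blast and myeloid markers, 2 were higher and 1 was lower, beside 2.93% and 3.51% of all tested genes. CD33, HOXA9, MEIS1, MPO and NPM1 belong to that list and did not pass the edgeR test. The median log2 fold change of that list was -0.02.

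MCL1 and BCL2L1 did not pass the test, and their groups overlapped. MCL1, a short-lived pro-survival protein gene (chromosome 1, 150574551 to 150579738), was at 418 and 428 CPM in PIG-EMPTY, against 416 and 432 CPM in PIG-LONA. The log2 fold change was 0.00 ± 0.04 with a 95% interval of -0.07 to 0.08 (edgeR adjusted p = 0.973). BCL2L1 (chromosome 20, 31664452 to 31723989) was at 24.0 and 24.1 against 24.2 and 23.7 CPM. Its log2 fold change was -0.01 ± 0.06 (95% interval -0.14 to 0.12, edgeR adjusted p = 0.973). Both intervals exclude a rise as large as the estimate for BCL2. For BCL2L1 the antisense gene ABALON shares 1424 exonic bases with it and had 1 count at most per library.

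The effectors differed from each other. BAX fell from 139 and 139 CPM in the PIG-EMPTY libraries to 124 and 123 CPM in the PIG-LONA libraries. The libraries of a group were nearly identical, and the groups did not overlap. The log2 fold change was -0.17 ± 0.04 (SE; 0.89-fold, 95% interval -0.25 to -0.09, edgeR adjusted p = 0.00872). BAX lies on the plus strand of chromosome 19 (48954815 to 48961798), where 1148 tested genes had a median of -0.00, and 66 tested genes within 1000000 bases had a median of -0.04. The estimate was between -0.18 and -0.16 in all 13 other settings. Leaving out PIG-EMPTY replicate 1 (edgeR adjusted p = 0.143) or replicate 2 (0.176) ended the call, as did testing with no low-count filter (0.0678).

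The sequence before the BAX start is shown because BAX was the effector that changed and because the motif CACGTG, singled out after the matches were seen, is frequent in it. CACGTG is the E-box read by MYC and related factors. RefSeq (GRCh38.p14) places the BAX start after chr19:48954625-48954874, and that 250-base window holds CACGTG 4 times, with the first bases at positions -138, -93, -45 and -14 from the start. Of 34943 RefSeq windows of this length, 6.32% hold CACGTG at least 1 time and 5 windows (0.0143%) hold it at least 4 times. The motif reads the same on both strands. It overlapped no match of the other motifs searched on both strands, which were the TATA box as TATAAA, the GC box as GGGCGG and the CCAAT box by its letters. Among the other 8 members matched in RefSeq, BBC3 held it 1 time. The windows of 2 alternative starts of BID overlap and each held it 1 time, at the same genomic site. The remaining windows held it 0 times. The line gives the 190 bases before the first exon annotated by GENCODE, chr19:48954625-48954814, plus strand, with CACGTG in capitals; the other 2 matches lie in that exon.
BAX: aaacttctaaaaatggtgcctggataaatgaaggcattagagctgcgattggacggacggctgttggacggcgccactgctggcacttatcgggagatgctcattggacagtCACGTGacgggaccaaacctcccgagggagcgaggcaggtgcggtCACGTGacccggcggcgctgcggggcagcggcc
A motif match is a description of these letters. Binding was not measured here.

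BAK1 did not pass the test, and its value has to be read against its chromosome. It was at 46.8 and 44.5 CPM in PIG-EMPTY, against 48.5 and 49.9 CPM in PIG-LONA. The groups did not overlap, and the log2 fold change was 0.11 ± 0.05 (SE; edgeR adjusted p = 0.249). Chromosome 6 (BAK1 at 33572547 to 33580293, minus strand) was higher as a whole in PIG-LONA, with a median log2 fold change of 0.17 over 799 tested genes and 226 of them called higher. The 39 tested genes within 1000000 bases of BAK1 also had a median of 0.17, and 31 of them lay above 0. BAK1 was thus below the middle of its chromosome, where 34.2% of genes had a value as low or lower. With the chromosome's median shift removed from each library, its log2 fold change turned to -0.06 (edgeR adjusted p = 0.573).

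No BH3-only member passed in the edgeR test, in DESeq2 or in limma-voom, and 1 of 4 had an unadjusted p under 0.05 in edgeR. That member was PMAIP1, the partner of MCL1 and BCL2A1, at 18.2 and 17.0 CPM in PIG-EMPTY, against 19.4 and 21.5 CPM in PIG-LONA. Both PIG-LONA libraries were higher, but they differed from each other by more than the gap between the groups. Its log2 fold change was 0.23 ± 0.08 (SE; edgeR adjusted p = 0.0834). Without PIG-LONA replicate 1, the lower of that group, the estimate was 0.30 and passed (edgeR adjusted p = 0.00349). PMAIP1 lies on the same chromosome as BCL2 (59899948 to 59904306), and 4 of 4 tested neighbours within 1000000 bases were above 0 with a median of 0.05 and 0 calls.

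BBC3, a BH3-only gene induced by DNA damage, on chromosome 19 (47220822 to 47232766), was at 14.6 and 14.2 CPM in PIG-EMPTY, against 13.7 and 13.2 CPM in PIG-LONA. The groups did not overlap but lay close together, with a log2 fold change of -0.10 ± 0.08 (edgeR adjusted p = 0.544). BCL2L11, which links growth factor loss to apoptosis (chromosome 2, 111119378 to 111168447), was at 96.6 and 101 CPM against 91.9 and 97.6 CPM. Its groups overlapped (log2 fold change -0.06 ± 0.04, edgeR adjusted p = 0.515). It shares 727 exonic bases with the antisense gene MIR4435-2HG, which had 536 to 756 counts per library, so reads of that stretch cannot be assigned with certainty. BID, the member cleaved by caspase 8 to join death receptors to mitochondria (chromosome 22, 17734138 to 17774770), was at 114 and 115 CPM against 118 and 114 CPM. Its groups overlapped and its log2 fold change was 0.01 ± 0.04, with a 95% interval of -0.07 to 0.10.

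Ratios between members within a library do not depend on how libraries are scaled. The 6 pairs described were picked after the values were seen, so they carry no test, and with 2 libraries against 2 an exact permutation test could not go below p = 0.333. The BCL2 to BAX ratio per length was 0.183 and 0.186 in PIG-EMPTY, against 0.232 and 0.245 in PIG-LONA, a difference of 0.37 on the log2 scale. Both PIG-LONA libraries had more BCL2 per BAX. The MCL1 to BAX ratio was 1.78 and 1.82 against 1.99 and 2.08 (0.18), with MCL1 itself at a log2 fold change of 0.00.

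The BCL2A1 to BAX ratio moved the other way, from 0.102 and 0.0842 to 0.0749 and 0.0654 (-0.41). The BCL2 to BCL2L11 ratio was 0.678 and 0.657 against 0.805 and 0.793 (0.26). MCL1 per PMAIP1 was 11.8 and 12.9 against 11 and 10.3 (-0.21), and BAX per BAK1 was 2.54 and 2.67 against 2.19 and 2.11 (-0.28). The chromosome 6 shift is part of the BAX to BAK1 value. With that shift removed, BAK1 was at a log2 fold change of -0.06 instead of 0.11. The groups did not overlap in any of the 6 pairs, nor in 39 of the 45 pairs that the 10 members can form, so this arrangement does not set the 6 apart.

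By class, the pro-survival members held 48.1% and 48.5% of the summed per-length level in PIG-EMPTY, against 48.8% and 49.3% in PIG-LONA. The effectors held 30.4% and 29.9% against 29.1% and 28.6%, and the BH3-only members 21.5% and 21.6% against 22.2% and 22.1%. The mean share of the effectors was 30.2% in PIG-EMPTY and 28.8% in PIG-LONA (n = 2 each). This was the widest gap of the 3 classes, and small beside the share that MCL1 alone held. Class shares depend on the length chosen. With the longest annotated transcript as the length, MCL1 held 31.9% over all libraries instead of 39.7%, and BAX 28.6% instead of 20.7%. Both moves are larger than the gaps between groups given here. The sum also leaves out the further BCL2 homologs described below.

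**Figure D3:**
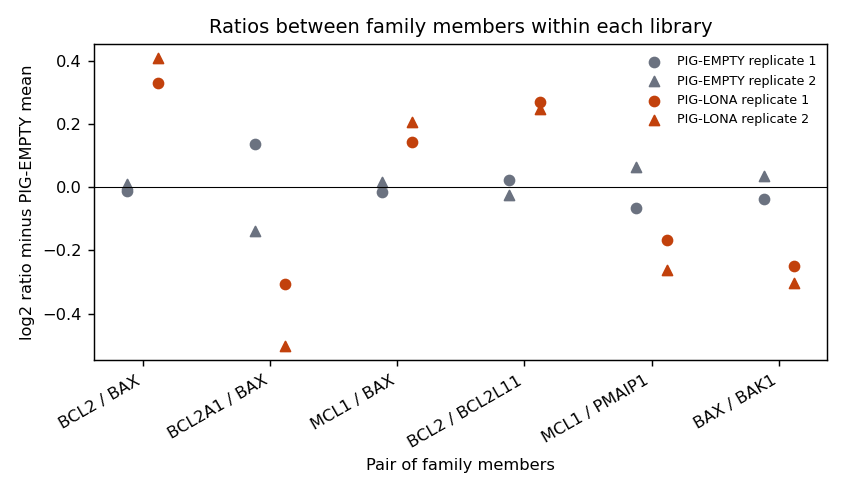
log2 ratio of the per-length levels of 6 pairs of members in each library, with the mean of the 2 PIG-EMPTY libraries set to 0 (circles, replicate 1; triangles, replicate 2). The PIG-LONA libraries (orange) lie above the PIG-EMPTY libraries (grey) for BCL2 to BAX, MCL1 to BAX and BCL2 to BCL2L11, and below them for the other 3 pairs.

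In the 7 lists around the family, 7 of 79 tested genes outside it passed (8.86%, beside 6.44% of all tested genes), and they are described list by list. Of 14 further BCL2 homologs, 10 were tested and 0 passed in edgeR, DESeq2 or limma-voom, with 0 at an unadjusted p under 0.05 and a median log2 fold change of -0.02. The lowest p values belonged to BECN1, an autophagy gene with a BH3 segment (92.6 and 89.6 against 86.4 and 85.6 CPM, -0.08 ± 0.04), and BNIP3, a mitophagy receptor (0.08 ± 0.06, groups overlapping). BCL2L10, BOK, HRK and BCL2L14 had at most 6 counts in any library and were not tested. Of 11 apoptosome and caspase genes 1 rose and 0 fell, with a median of 0.02. The riser was CASP2, a caspase tied to DNA damage and mitotic faults, at 88.4 and 90.6 CPM in PIG-EMPTY, against 100 and 101 CPM in PIG-LONA (0.17 ± 0.04, edgeR adjusted p = 0.0140). That call was lost without either PIG-EMPTY library, in DESeq2 and without the low-count filter.

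Of 7 inhibitor of apoptosis genes, 6 were tested and 0 passed in edgeR, DESeq2 or limma-voom (1 with an unadjusted p under 0.05). BIRC7, known as livin, was at 8.56 and 7.88 against 7.32 and 6.42 CPM (-0.27 ± 0.11, edgeR adjusted p = 0.193), and BIRC6, a very large ubiquitin ligase, was at 0.09 ± 0.05. Both passed without PIG-LONA replicate 1. Of 11 genes for the outer membrane pore and for turnover of MCL1 and its relatives, 10 were tested and 0 passed in the same 3 tools, with 0 unadjusted. The ligase HUWE1 (0.08 ± 0.05) and the deubiquitinase USP9X (-0.07 ± 0.05), both regulators of MCL1 stability, had the lowest p values there and overlapping groups. HUWE1 passed without PIG-LONA replicate 1 and USP9X without PIG-LONA replicate 2.

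In the death receptor list, 1 of 11 tested genes rose and 1 fell, beside 2.93% and 3.51% of all tested genes. The median of the list was -0.05. RIPK1, the kinase of the TNF receptor complex, was at 30 and 30.8 CPM in PIG-EMPTY, against 37.7 and 39.2 CPM in PIG-LONA (0.34 ± 0.06, edgeR adjusted p = 0.000602). Like BAK1 it lies on chromosome 6, and with that chromosome's shift removed it was at 0.17 and did not pass (adjusted p = 0.111). TNFSF10, which encodes the death ligand TRAIL, was at 21.2 and 22 against 18.3 and 18.2 CPM (-0.24 ± 0.07, edgeR adjusted p = 0.0402). The TNFSF10 call was lost without 3 of the 4 libraries in turn, PIG-LONA replicate 1 being the exception, and in DESeq2 and without the filter. DESeq2 and limma-voom called 0 of 13 stress and growth factor inputs. In edgeR 1 rose and 0 fell, beside 6.44% of all tested genes called in either direction. It was TP73, a transcription factor gene (0.29 ± 0.08, edgeR adjusted p = 0.0421), and its call held in only 5 of 13 other settings.

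Genes of the genotoxic stress response, a list that contains BAX, BBC3 and PMAIP1, had 4 lower and 0 higher among 23 tested genes (edgeR), beside 3.51% lower and 2.93% higher over all tested genes. Their median was -0.09, and 9 had an unadjusted p under 0.05. Either direction taken, 3 passed in DESeq2 and 4 in limma-voom. CDKN1A, which encodes the cell cycle inhibitor p21, was at 41.9 and 41.3 CPM in PIG-EMPTY, against 30.1 and 30 CPM in PIG-LONA (-0.47 ± 0.05, edgeR adjusted p = 1.67e-05) and passed in all 13 other settings, against the upward shift of its chromosome 6. PHLDA3, an inhibitor of AKT signalling, fell by 0.35 on the log2 scale. BTG2, an antiproliferative gene named after its values were seen, fell by 0.26 (edgeR adjusted p = 0.0134). The BTG2 call was lost in DESeq2 and without the low-count filter. MDM2, a ubiquitin ligase gene induced by DNA damage, was at -0.13 ± 0.04 (155 and 160 against 141 and 147 CPM) and missed the threshold at an edgeR adjusted p = 0.0572, but passed in 5 of 13 other settings. Within this list the family members went separate ways, with BAX at -0.17, BBC3 at -0.10 and PMAIP1 at 0.23. The count of 4 was 1 when PIG-EMPTY replicate 2 was left out (CDKN1A passing) or the low-count filter was dropped, 2 when PIG-EMPTY replicate 1 was left out, and 7 when PIG-LONA replicate 1 was left out.

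**Figure D4:**
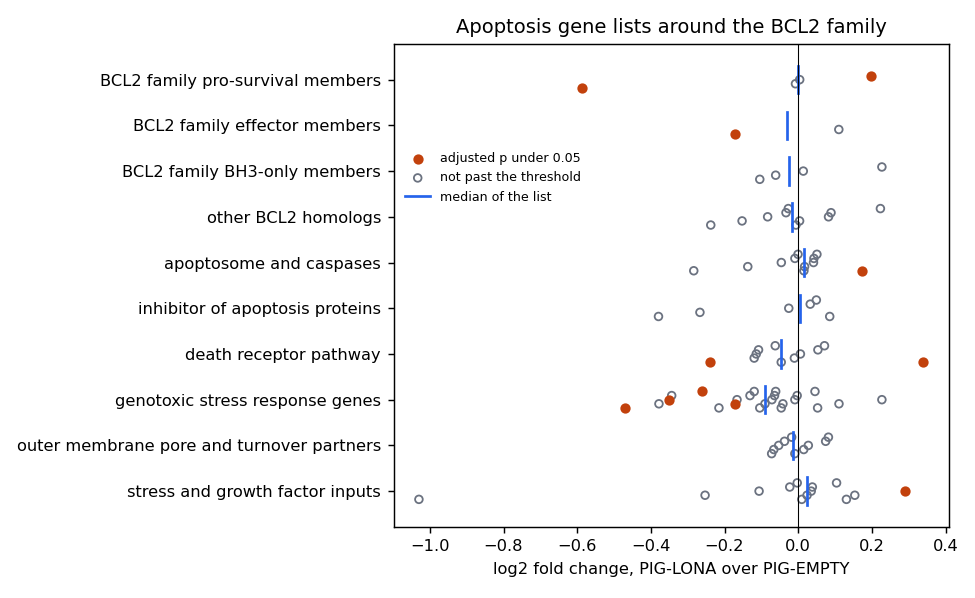
log2 fold change of every tested gene in the 3 classes of the family and in 7 lists around it, with filled orange points past adjusted p under 0.05 and blue bars at list medians. Medians lie between -0.09 (genotoxic stress response genes) and 0.02, and the point farthest to the left, at -1.03, is STAT5A of the stress and growth factor list, a gene with few reads that did not pass and is named after its value was seen.

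Genes whose profile over the 4 libraries was most like that of each changed member were found by the Euclidean distance between centred log2 CPM values, among 11292 genes with a mean count of at least 100. For BCL2 they were OGT (distance 0.00606), ZNF451 (0.00741) and FIGNL1 (0.0116), all at a log2 fold change of 0.20. For BAX they were TRAF3IP3 (0.0115), GMIP (0.0133) and LRP10 (0.0147), at -0.18 to -0.16. For BCL2A1 the nearest were FCAR (0.0835), which encodes the Fc receptor for IgA on myeloid cells, EVA1B (0.112) and HSPA7 (0.122). With 4 libraries, many genes share a profile of this kind, so these names describe likeness in these libraries only. ZNF451 lies on chromosome 6, where the median log2 fold change of tested genes was 0.17.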

How the data were processed

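Poly(A) RNA was sequenced after a directional library preparation (NEBNext Ultra II), per the labels' protocols. The authors deposited raw read counts per Ensembl gene. HTSeq, STAR 2.5, FastQC 0.11.4 and hg38 are listed, per the submitters' processing notes. The sources used here do not give the annotation release or the strand setting, so reads of overlapping genes may be misassigned. Of 67062 rows, 60357 matched a symbol, and the rest held 0.0723% of counts. Coordinates, lengths and coding sequences came from GENCODE release 29 on GRCh38, the assembly of hg38, and promoter windows from RefSeq, with 9 of the 10 members matched.

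Counts were filtered with filterByExpr (minimum count 10, minimum total 15), scaled by TMM and fitted with edgeR 4.0.16 (R 4.3.3, glmQLFit and glmQLFTest, two-sided, intercept and group), with Benjamini-Hochberg adjustment over 15918 genes and a threshold of 0.05. A standard error is the log2 fold change divided by the square root of F. The p-values measure the spread between separate transductions of 1 cell line. The chi-square per gene between replicates was 1.76 in PIG-EMPTY and 4.67 in PIG-LONA, above the 1 of counting noise, so the 4 libraries were kept apart. On simulated data, the fit recovered 64% of 1.2-fold, 86% of 1.5-fold and 98.1% of 2-fold changes, in genes with a mean count of at least 50. Changes below 1.2-fold, such as that of BCL2, were not simulated.

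Alternatives were DESeq2 1.42.0 (size factors and Wald test), limma-voom (limma 3.58.1), upper-quartile or total scaling, 2 other filters, a block for the replicate number, leaving out each library in turn, the chromosome 6 shift removed, a threshold of 0.01 and another gene length. The members and lists were chosen with earlier results of these data known. All 10 members were named; other lists added up to 4 called genes, or 2 as values where none passed, and NPM1, CDKN1A and MDM2 were named in any case, as were the 3 genes nearest in profile to each called member. Genes withheld from the lists are not reported here.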

Additional observations from a re-analysis of the deposited data

How the results depend on the processing

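The count of 1025 differing genes was 334 without the low-count filter, 473 with the DESeq2 Wald test and 528 at adjusted p under 0.01, and ran from 466 to 2331 with 1 library left out. The count of 3 family members was 1 without the filter, and ran from 0 to 4 with 1 library left out, being 0 without PIG-EMPTY replicate 1 and 1 without PIG-EMPTY replicate 2. In the 7 lists around the family, the count of 7 genes outside it was 2 without the filter, 3 with DESeq2, 3 at adjusted p under 0.01, and 2 to 16 with 1 library left out. The count of family members was 2 with the DESeq2 Wald test and 2 at adjusted p under 0.01. A fit on 3 libraries takes the lone library of a group to vary like the other group.

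The log2 fold change of BCL2 ran from 0.17 to 0.23, that of BAX from -0.18 to -0.16 and that of PMAIP1 from 0.14 to 0.30 with 1 library left out. BCL2A1 was at -0.58 without the filter, -0.58 in DESeq2 and between -0.72 and -0.44 with 1 library left out, and BAX at -0.16 without the filter. Values near 0 changed sign: BCL2L1 was at 0.00 without the filter and ran from -0.02 to 0.01 with 1 library left out, MCL1 was at -0.01 with upper-quartile scaling, -0.00 with library totals and -0.02 to 0.03 with 1 library left out, and BID ran from -0.01 to 0.04. With 1 library left out, BNIP3 ran from -0.03 to 0.20, BIRC6 from -0.03 to 0.19, HUWE1 from -0.01 to 0.17 and USP9X from -0.16 to 0.01. BAK1 was at -0.06 with the chromosome 6 shift removed. The cause of these changes was not tested.

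With the longest transcript as length, the shares of the summed level were 4.96% for BCL2, 2.72% for BCL2L1, 31.9% for MCL1, 28.6% for BAX, 6.34% for BAK1, 13.6% for BID, 5.47% for BCL2L11, 2.24% for BBC3 and 2.89% for PMAIP1.

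Replicate numbers are shared by the groups, but same-numbered libraries did not deviate together (correlation of deviations over genes 0.0288). With the replicate block 1101 genes and 3 members passed. The block also took MDM2 past the threshold (-0.13, edgeR adjusted p = 0.0397), as did upper-quartile scaling (0.0304), the CPM filter (0.0414) and leaving out PIG-LONA replicate 1 (0.0399) or replicate 2 (0.000668), with adjusted p up to 0.579 in the other settings. BCL2A1 had the fewest counts of the members and the widest standard error (0.15).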
